A study of Mus musculus with 12 samples.

Results

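The 10 genes described here are markers of adipose progenitor cells and preadipocytes: *Pdgfra*, *Pdgfrb*, *Dlk1*, *Cd34*, *Ly6a*, *Dpp4*, *Pi16*, *Zfp423*, *Cd248* and *Thy1*. They were chosen by name, by a rule that uses no measured value but with earlier results of these data known, among 35523 genes with transcripts in the deposited tables. They were followed by polysome sequencing, in which the mRNA carried by several ribosomes is sequenced beside the total RNA of the same kind of culture. The cultures were stromal vascular fraction (SVF) cells, the non-adipocyte cells released by digesting fat, from the epididymal white adipose tissue (eWAT) of male *Lep*ob/*Lep*ob (ob/ob) mice aged 12 weeks. All groups therefore share the loss of leptin, and the libraries include no lean mice.

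Confluent SVF cells were given an adipogenic cocktail of IBMX, dexamethasone and insulin, followed by insulin alone, and were lysed on day 4 per the labels (the series design text gives 3 days). Rosiglitazone (Rosi), a PPARγ agonist, was present at 1 µM throughout in the Rosi cultures, and its solvent DMSO in the vehicle (Veh) cultures. The input libraries hold total RNA, and the polysome libraries hold pooled gradient fractions of heavier mRNAs, with 3 or more ribosomes each per the series design text and more than 3 per the study's text. The labels list 3 biological replicates in each of the 4 groups. The tables of input Veh replicates 2 and 3 were identical and were counted as 1 library, which left 2 libraries of input Veh and 3 in each of the other groups, with 17446517 to 24016101 estimated reads per library.

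The cultures were mixed and the values are bulk values, so fewer cells of a type and less RNA per cell cannot be told apart. General fibroblast and stromal cell genes, 20 in all, summed to between 21600 and 24800 CPM (read counts scaled to the size of each library) in the input libraries, and the 12 mural cell markers to between 10300 and 11800 CPM. Of the mural sum, *Acta2* alone made up a mean of 6260 CPM in input Veh and 5500 CPM in input Rosi. Only 8 of the 12 mural markers had enough reads to be tested in input. The 12 macrophage markers summed to 16900 to 19500 CPM in input Veh and 12200 to 14300 CPM in input Rosi. Of the 10 T cell markers listed, 4 were at 0 in every library (*Cd3e*, *Cd3d*, *Cd3g* and *Cd2*). The others were not all absent: the list summed to a mean of 15.4 CPM in input Veh and 15.4 CPM in input Rosi. *Il7r* was the highest of the list in both groups. The part these other cells play in the members' values was not tested.

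Adipocytes arise from mesenchymal progenitors in the fat stroma. The receptor PDGFRα and the surface protein SCA-1, encoded by *Ly6a*, are widely used to sort these cells, while PDGFRβ is shared between perivascular progenitors and mural cells. *Dpp4* and *Pi16* mark a fibroblast-like interstitial population upstream of committed preadipocytes. *Dlk1* (preadipocyte factor 1) and the transcription factor gene *Zfp423* act around the step of commitment, the first as a brake on differentiation and the second in favour of it. *Cd34* and *Thy1* encode surface proteins of several stromal and blood lineages, and *Cd248* encodes endosialin, a surface glycoprotein of fibroblasts and pericytes.

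Since the assay separates mRNAs by their ribosomes, the sequence around the start codon is shown for *Ly6a*, which was higher in polysome than in input, for *Pi16* and *Cd248*, which were lower, and for *Pdgfra*, which stayed close to 0; those of the other members, *Pdgfrb* and *Dlk1* among them, are not printed. Each line has the last 10 bases of the 5′ UTR, the ATG and the next 7 bases of the coding region of the most abundant transcript, 5′ to 3′ in the mRNA sense, read from the mouse transcripts of GENCODE M21 on GRCm38 (mm10). Capitals mark the base 3 positions before the ATG, the ATG and the base just after it, the positions of the Kozak context. The start codon of *Ly6a* is at chr15:74997602-74997604 (minus strand), that of *Pdgfra* at chr5:75162243-75162245, that of *Pi16* at chr17:29319215-29319217 and that of *Cd248* at chr19:5068126-5068128 (plus strand).
Ly6a: ttctctgAggATGGacactt
Pdgfra: ctcaggaGctATGGggacct
Pi16: gctggccAccATGCacggtt
Cd248: gggcgtcGcgATGCtgctgc

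A purine stood 3 positions before the ATG in 9 of the 10 members, *Zfp423* being the exception, and in 86.0% of the 13064 tested genes with such a window. A G stood just after the ATG in 3 of the 10, namely *Pdgfra*, *Pdgfrb* and *Ly6a*, and in 52.5% of those genes. All 3 carried both features, as did 45.4% of genes, and of these *Pdgfrb* was lower and *Ly6a* higher in polysome. *Cd248* had the shortest 5′ UTR of the 10, at 48 bases, with a GC content of 79.2% that exceeded that of 93.3% of genes. The 5′ UTR of *Ly6a* had a GC content of 48.2%, above only 6.61% of genes, and that of *Pdgfra* 47.6%, above 6.09%. An ATG upstream of the start codon was present in 6 of the 10, with 3 in *Ly6a*, 2 in *Pi16*, 1 each in *Pdgfra* and *Pdgfrb* and none in *Cd248*, against 49.2% of genes that had none. These are descriptions of the annotated mRNAs and were not tested against the measurements.

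The members ranged from highly expressed genes to genes with a few reads per library. In TPM, a unit that corrects for transcript length, *Cd248* (359) and *Ly6a* (305) led in input Veh, and their libraries overlapped. *Thy1* followed at 145, *Pdgfrb* at 87.3, *Pdgfra* at 17.2, *Pi16* at 5.72 and *Cd34* at 1.27, each step being larger than the spread between libraries. *Dlk1* (0.637), *Zfp423* (0.47) and *Dpp4* (0.262) came last, and neighbours among these 3 overlapped. Among all expressed genes, *Cd248* was above 97.5% in input Veh, *Pdgfra* above 68.5% and *Dpp4* above 20%.

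The order at the top differed between the fractions. In input Rosi, *Cd248* (339 TPM) and *Ly6a* (316 TPM) again overlapped. In polysome Veh, *Ly6a* stood first at 534 TPM, without overlap with *Cd248* at 165 TPM, while *Cd248* now overlapped with *Thy1* at 129 TPM. In polysome Rosi the levels were 559 TPM for *Ly6a*, 181 TPM for *Cd248* and 129 TPM for *Thy1*, and none of these overlapped. *Pdgfrb* followed *Thy1*, and *Pdgfra* followed *Pdgfrb*, in all 4 groups.

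**Figure D1:**
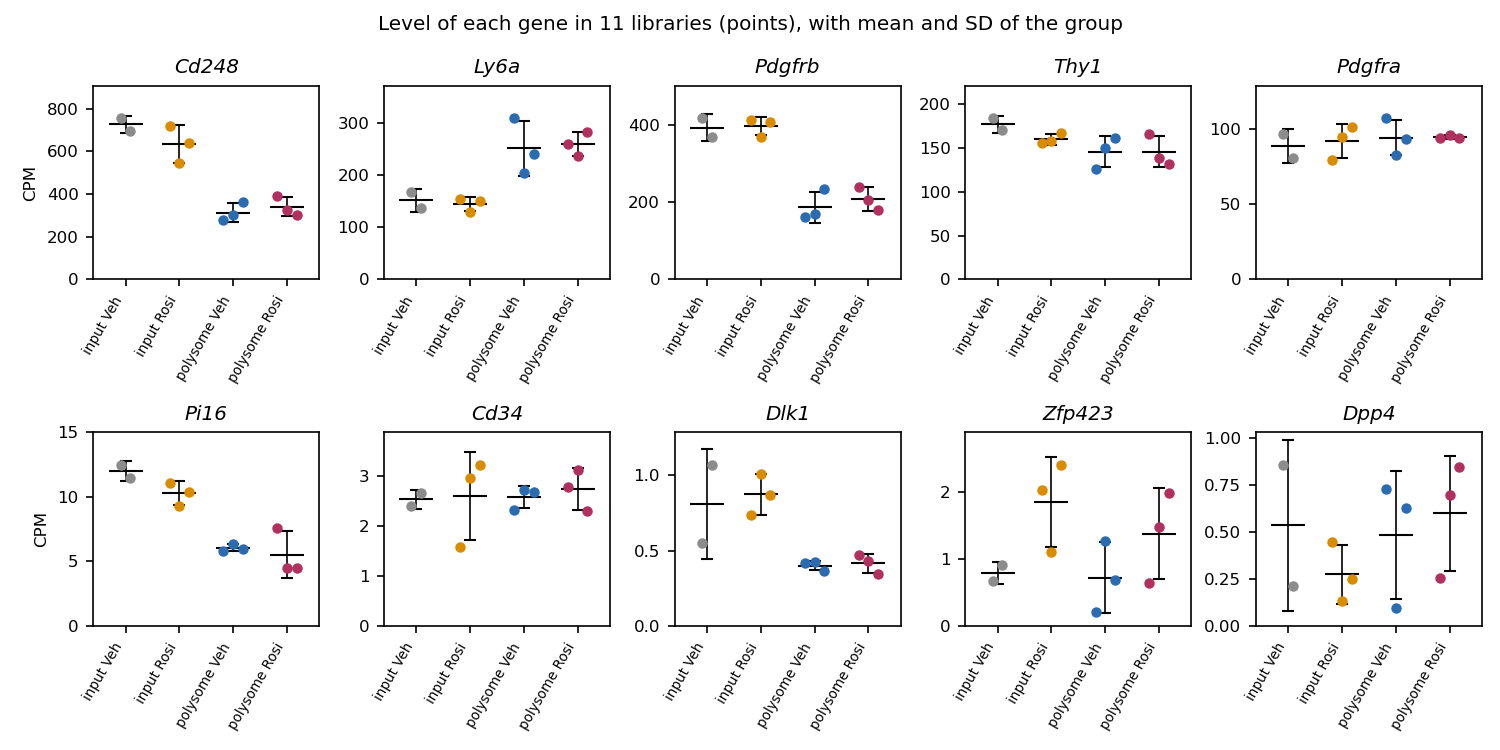
Level of each of the 10 genes in CPM (vertical axes, each starting at 0) in the 11 libraries (points) of the 4 groups, with the mean and SD of each group in black. The polysome points of *Cd248*, *Pdgfrb* and *Pi16* lie below the input points and those of *Ly6a* above them, while Rosi and Veh points of the same fraction lie at similar heights for most genes.

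Whether Rosi changes the members was asked first, within each fraction. None of the 9 members tested in input was called at an adjusted p under 0.05 with an absolute log2 fold change over 0.2, where 1.34% of the 13603 tested genes were called (182 genes, edgeR). One member, *Zfp423*, had an unadjusted p under 0.05, as did 2312 of all genes. The median log2 fold change of the members was 0.08, against 0.01 for all genes. In the polysome fraction 0 of 9 tested members were called, against 0.655% of 13436 genes (88 genes), none had an unadjusted p under 0.05 (636 of all genes did), and DESeq2 also called none in either fraction. The median was 0.09, against -0.01 for all genes. The 2 treatments did not overlap for 3 of the 9 members in input (*Pi16*, *Zfp423* and *Thy1*), against 36.7% of all genes, and for 0 of 9 in polysome, against 8.95%.

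*Pdgfra* (chromosome 5, 75152292 to 75198215, plus strand) encodes the receptor that defines most adipose progenitors. It had 96.3 and 80.3 CPM in the input Veh libraries and 79.2, 94.5 and 101 CPM in the input Rosi libraries. The Veh values lay inside the range of the Rosi values. The log2 fold change was 0.12 ± 0.13 (SE), with a 95% interval of -0.15 to 0.40 and an adjusted p of 0.632. In polysome *Pdgfra* had 107, 82.8 and 93.3 CPM with Veh and 94.1, 96.2 and 93.8 CPM with Rosi, and the interval of the log2 fold change was -0.25 to 0.24. The 3 polysome Rosi libraries were closer to each other (SD 1.3 CPM) than those of the other groups (SD 11.3 to 11.9 CPM).

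*Pdgfrb* (chromosome 18, 61045150 to 61085061, plus strand), the second PDGF receptor, had 417 and 369 CPM in input Veh and 412, 369 and 408 CPM in input Rosi. The groups overlapped and the log2 fold change of 0.08 ± 0.09 had a 95% interval of -0.12 to 0.28. In polysome the change was 0.14 ± 0.15 (interval -0.18 to 0.47). *Cd248* (chromosome 19, 5068078 to 5070682, plus strand) had 755 and 697 CPM in input Veh and 719, 545 and 639 CPM in input Rosi. One Rosi library was inside the Veh range and the other two below it, and the change was -0.13 ± 0.10 (interval -0.35 to 0.10, adjusted p = 0.539). In polysome it was 0.11 ± 0.13 (interval -0.17 to 0.39).

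The glycosylphosphatidylinositol-anchored surface proteins gave similarly small values. *Ly6a* (chromosome 15, 74994877 to 74998031, minus strand) had 168 and 137 CPM in input Veh and 154, 130 and 150 CPM in input Rosi, with a log2 fold change of -0.01 ± 0.11 (interval -0.25 to 0.23). In polysome the change was 0.03 ± 0.14 (interval -0.28 to 0.34). *Thy1* (chromosome 9, 44043384 to 44048579, plus strand) had 184 and 170 CPM in input Veh, both above the 156, 158 and 167 CPM of input Rosi. The change was nevertheless small, at -0.07 ± 0.09 (interval -0.27 to 0.12, adjusted p = 0.699). *Thy1* in polysome changed by -0.01 ± 0.12 (interval -0.28 to 0.26).

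*Pi16* (chromosome 17, 29317680 to 29330593, plus strand), which encodes a secreted peptidase inhibitor of the CAP family, had 12.5 and 11.5 CPM in input Veh and 11.1, 9.33 and 10.4 CPM in input Rosi. The Rosi values were all below the Veh values, with a log2 fold change of -0.15 ± 0.14 (interval -0.46 to 0.16, adjusted p = 0.606). The polysome change was -0.14 ± 0.22 (interval -0.61 to 0.33), with Rosi values of 7.62, 4.51 and 4.46 CPM on both sides of the Veh values of 5.83, 6.35 and 5.96 CPM. *Cd34* (chromosome 1, 194938819 to 194961279, plus strand) lay between 1.58 and 3.22 CPM in all 11 libraries. Its intervals were wide, -0.60 to 0.82 in input and -0.42 to 0.59 in polysome.

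*Zfp423*, *Dlk1* and *Dpp4* rested on few reads. *Zfp423* (chromosome 8, 87661810 to 87959595, minus strand) had 11 and 17 reads in input Veh and 41, 25 and 58 reads in input Rosi, or 0.673 and 0.906 CPM against 2.02, 1.1 and 2.4 CPM. The Rosi libraries were all above the Veh libraries. The log2 fold change was 1.28 ± 0.44 (interval 0.33 to 2.22), with an unadjusted edgeR p of 0.0119 and an adjusted p of 0.166, so it was not called. Without the filter on low counts the adjusted p was 0.0387 and *Zfp423* was called, within a range of 0.0387 to 0.677 over the alternatives. In polysome it had 4, 27 and 13 reads with Veh and 15, 34 and 40 with Rosi, the groups overlapped, and the change of 0.88 ± 0.54 had an interval of -0.29 to 2.06.

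*Dlk1* (chromosome 12, 109452823 to 109463336, plus strand) had 9 and 20 reads in input Veh and 15, 23 and 21 in input Rosi. Its log2 fold change of 0.17 ± 0.47 had an interval of -0.84 to 1.18, and it had too few reads in polysome, 7 to 11 per library, to pass the filter there. *Dpp4* (chromosome 2, 62330073 to 62412231, minus strand), a cell-surface peptidase, had 2 to 17 reads in any library and was tested in polysome alone, where the interval was -1.05 to 1.66. A change of more than 2-fold in either direction for *Dpp4*, and upward for *Dlk1*, was therefore within these errors.

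**Figure D2:**
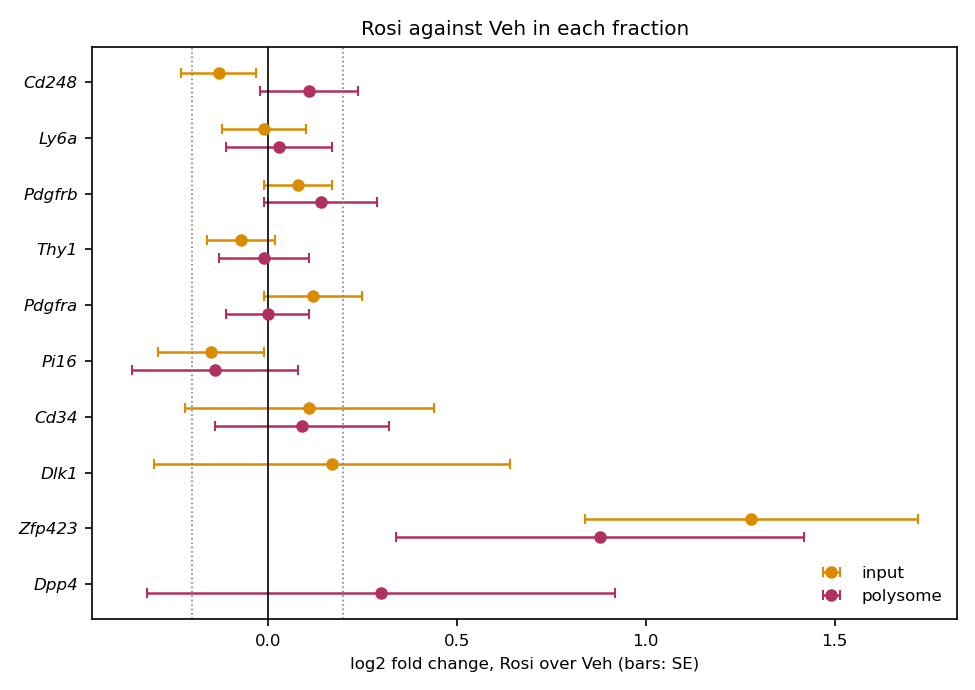
Log2 fold change of Rosi over Veh (horizontal axis) with its SE (bars) for each tested gene in input and in polysome, with dotted lines at -0.2 and 0.2. *Zfp423* in input lies farthest from 0, at 1.28 ± 0.44, and the genes of higher level lie within 0.15 of 0 in both fractions.

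The same cultures showed the response to Rosi in other lists of genes, chosen with earlier results of these data known. Of the adipocyte markers, 7 of 10 tested rose in input, with a median log2 fold change of 3.06, and 6 of 9 rose in polysome. *Cidec*, a lipid droplet protein gene, rose by 7.80 ± 0.20 on the log2 scale in input, *Adipoq* (adiponectin) by 6.38 ± 0.28 and *Plin1* (perilipin 1) by 4.93 ± 0.24. The adipocyte markers summed to at most 212 CPM in the input Veh libraries and at least 489 CPM in the input Rosi libraries. Of 18 genes of ICAM1+ committed preadipocytes, 4 rose in each fraction, among them the fatty acid binding protein gene *Fabp4* (2.73 ± 0.09 in input and 3.11 in polysome), *Steap4* and the fatty acid transporter gene *Cd36*.

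Apart from the ICAM1+ preadipocyte genes above, few genes of the lists closest to the members were called. Only 1.34% of all genes were called in input and 0.655% in polysome, so lists of this size could show few calls. Of the DPP4+ interstitial progenitor genes other than the members, 0 of 19 tested were called in input (median -0.05) and 0 of 18 in polysome (median -0.07). None of 9 genes of CD142+ stromal cells, 20 general fibroblast genes, 24 regulators of commitment, 5 Ly6 family genes and 11 relatives of *Dpp4* and *Pi16* were called in input, and none in polysome. The regulators of commitment had a median of 0.14 in input, against 0.01 for all genes, with 3 of 24 below 0. Of these 24, 6 had an unadjusted edgeR p under 0.05, as did 2312 of the 13603 tested genes. Their median in polysome was 0.03. Of 14 genes of PDGF ligands and PDGF receptor signalling, 1 rose in input. It was *Spry4*, which encodes an inhibitor of receptor tyrosine kinase signalling, with 0.97 ± 0.17 and an adjusted p of 0.0112. No gene of that list was called in polysome, where *Spry4* was higher by 0.63 ± 0.15 with an adjusted p of 0.148 (edgeR). Among markers of other cells, the macrophage genes *Lyz2* and *Msr1* fell by 0.45 each in input, beside a median of -0.38 over 12 macrophage genes. The mural gene *Mcam* rose by 0.60, and no endothelial, mesothelial or T cell marker was called.

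The differences among the members that passed the test were between polysome and input. In Veh cultures 2 of the 10 were called at an adjusted p under 0.05 with an absolute log2 fold change over 1, against 9.67% of the 14042 tested genes. By the adjusted p alone, 4 of 10 passed, against 49.3% of genes: 3 were lower in polysome, where 24.6% of genes were, and 1 was higher, where 24.7% were. In Rosi cultures 1 of 10 was called, against 11.3% of genes, and 5 passed by the adjusted p alone, against 55.1%, with 4 lower (26% of genes) and 1 higher (29.1%). The 2 fractions did not overlap for 6 of 10 members in Veh, against 64% of genes, and for 5 of 10 in Rosi, against 65.4%. By the adjusted p alone, with both directions together, the members thus passed no more often than all genes. For the call in Veh and for lower values in both treatments their share was nominally above that of all genes. These shares rest on only 2, 3 and 4 of 10 members and were not tested against those of all genes. Among the 4 lower in Rosi was *Dlk1*, on few reads. The medians of the members were -0.21 in Veh and -0.29 in Rosi beside 0.02 and 0.00 for all genes, and the differences lay between individual members.

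*Cd248* had the lowest polysome over input value of the members in Veh. It had 755 and 697 CPM in input Veh and 278, 300 and 363 CPM in polysome Veh, 719, 545 and 639 CPM in input Rosi and 392, 327 and 303 CPM in polysome Rosi. Every polysome library was below every input library. The level was 2.32-fold lower in polysome with Veh (log2 fold change -1.21 ± 0.14, interval -1.51 to -0.92, adjusted p = 6.97e-06) and 1.86-fold lower with Rosi (-0.90 ± 0.13, interval -1.17 to -0.63, adjusted p = 2.9e-05). Only the Veh value passed the fold threshold. The adjusted p of *Cd248* stayed at or below 0.000403 in Veh and 0.000582 in Rosi over the alternatives.

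*Pdgfrb* behaved alike in size and direction. Its 417 and 369 CPM in input Veh stood against 161, 168 and 233 CPM in polysome Veh, and its 412, 369 and 408 CPM in input Rosi against 240, 206 and 179 CPM in polysome Rosi. The fractions did not overlap in either treatment. The log2 fold change was -1.07 ± 0.15 with Veh (interval -1.39 to -0.75, adjusted p = 3.91e-05) and -0.93 ± 0.14 with Rosi (interval -1.22 to -0.64, adjusted p = 4.2e-05). The Veh value sat at the fold threshold: it was -0.98 without polysome Veh 1, -1.0 without polysome Veh 2 and -0.98 without input Veh 1, and the call was lost in each, at an adjusted p no higher than 0.00188 over the alternatives.

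*Pi16* was the third member below input in both treatments. It had 12.5 and 11.5 CPM in input Veh against 5.83, 6.35 and 5.96 CPM in polysome Veh, a log2 fold change of -0.99 ± 0.20 (interval -1.42 to -0.55, adjusted p = 0.00093). With Rosi, 11.1, 9.33 and 10.4 CPM in input stood against 7.62, 4.51 and 4.46 CPM in polysome, a change of -0.89 ± 0.18 (interval -1.28 to -0.50, adjusted p = 0.000737). No polysome library reached an input library. Neither value passed the fold threshold, which *Pi16* crossed in Veh without polysome Veh 2 (-1.02) or without input Veh 2 (-1.05). Without polysome Rosi 1, the library of its group with the highest *Pi16*, *Pdgfrb* and *Cd248*, all 3 genes were called in Rosi, at -1.20, -1.04 and -1.01.

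*Ly6a* went the other way. It had 168 and 137 CPM in input Veh and 309, 204 and 240 CPM in polysome Veh, 154, 130 and 150 CPM in input Rosi and 259, 236 and 282 CPM in polysome Rosi. All 6 polysome libraries were above all 5 input libraries. The level was 1.65-fold higher in polysome with Veh (log2 fold change 0.72 ± 0.16, interval 0.39 to 1.05, adjusted p = 0.00133) and 1.79-fold higher with Rosi (0.84 ± 0.14, interval 0.55 to 1.13, adjusted p = 0.000104). These values passed the test and stayed below the fold threshold. The highest adjusted p over the alternatives was 0.0338 in Veh and 0.00091 in Rosi.

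*Pdgfra* and *Cd34* did not pass. With the values given above, *Pdgfra* differed between polysome and input by 0.09 ± 0.13 in Veh (interval -0.19 to 0.37, adjusted p = 0.579) and by 0.05 ± 0.12 in Rosi (interval -0.20 to 0.30, adjusted p = 0.752), and the fractions overlapped in both treatments. A change of the size seen in *Pdgfrb* lay outside both intervals. *Cd34* gave 0.02 ± 0.30 in Veh and 0.07 ± 0.26 in Rosi, where the interval in Veh ran from -0.62 to 0.65. *Thy1* had 126, 150 and 161 CPM in polysome Veh, all below its 2 input Veh libraries. Its log2 fold change of -0.28 ± 0.12 (interval -0.54 to -0.02) had an adjusted p of 0.0664, which ranged from 0.026 to 0.385 over the alternatives. With Rosi the *Thy1* value was -0.14 ± 0.11 (interval -0.37 to 0.09, adjusted p = 0.298).

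*Dlk1*, the preadipocyte brake, was the member called in Rosi. It had 0.739, 1.01 and 0.87 CPM in input Rosi and 0.471, 0.434 and 0.347 CPM in polysome Rosi, on 15, 23 and 21 against 11, 10 and 7 reads. The fractions did not overlap, and the log2 fold change of -1.05 ± 0.41 had an adjusted p of 0.0395. The call was lost when any 1 of 5 libraries was left out: the adjusted p was 0.0617, 0.0796 and 0.111 without polysome Rosi 1, 2 and 3, and 0.112 and 0.0786 without input Rosi 2 and 3. It was also lost with DESeq2 (0.0906), without the count filter (0.122) and with limma on TPM (0.167). The replicate block, a fit that pairs libraries by replicate number, ended the call as well. In Veh the value was -1.01 ± 0.47 with an adjusted p of 0.0893. *Zfp423* gave -0.13 ± 0.64 in Veh and -0.44 ± 0.48 in Rosi, and *Dpp4* gave -0.13 ± 0.80 and 1.11 ± 0.72, so that nothing could be said of either at this depth.

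**Figure D3:**
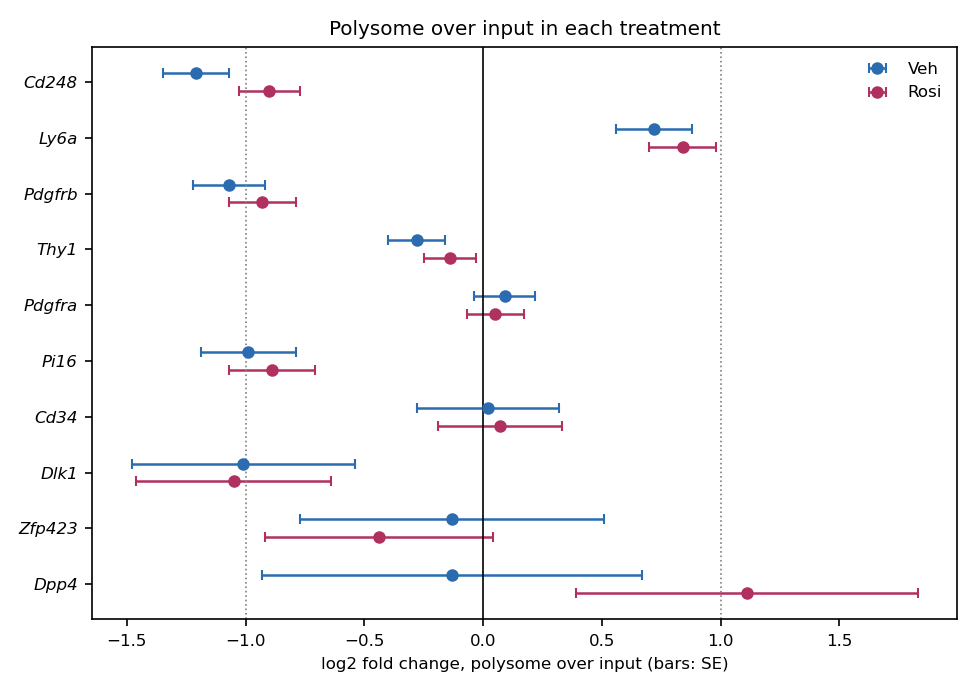
Log2 fold change of polysome over input (horizontal axis) with its SE (bars) for each of the 10 genes in Veh and in Rosi cultures, with dotted lines at -1 and 1. *Cd248*, *Pdgfrb* and *Pi16* lie near -1 and *Ly6a* near 0.8 in both treatments, *Pdgfra* and *Cd34* lie near 0, and the bars of *Dlk1*, *Zfp423* and *Dpp4* are the widest.

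Whether Rosi shifts the members between input and polysome was tested as the interaction of fraction and treatment. The study's measure of translation efficiency is such an interaction fitted to transcripts with DESeq2, whereas here it was fitted to gene sums of 11 libraries with edgeR, so the counts of the 2 are not comparable. No member of 10 was called, and of all 14042 genes 0% were (edgeR, with 961 genes and 0 members at an unadjusted p under 0.05, and 1 gene called by DESeq2). The member with the smallest error relative to its value was *Cd248*, with 0.32 ± 0.19 (interval -0.09 to 0.72). *Pdgfrb* gave 0.14 ± 0.20 (interval -0.29 to 0.58) and *Ly6a* gave 0.12 ± 0.20 (interval -0.32 to 0.55), while *Pdgfra* gave -0.05 ± 0.18 (interval -0.42 to 0.33). The intervals for *Pi16* (-0.49 to 0.68) and *Thy1* (-0.20 to 0.49) also included 0. The polysome over input values of both treatments can thus be read side by side, and no difference between them was detectable with these libraries. On the first principal component of all genes, the polysome Rosi libraries lay at -25.3, -30.1 and -38.9. Polysome Veh 1 lay at the end of the polysome libraries, at -47.4 against -24.7 and -19.1 for the other polysome Veh libraries. It also had the lowest *Pdgfrb* and *Cd248* and the highest *Ly6a* and *Pdgfra* of the 11 libraries. Without it, *Cd248*, *Pdgfrb*, *Pi16* and *Ly6a* kept the direction of their Veh values.

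The pair of PDGF receptors was compared more closely, a choice made after their values were seen, so the comparison is a description without a test. The ratio of *Pdgfra* to *Pdgfrb* CPM within a library was 0.231 and 0.218 in input Veh and 0.192, 0.256 and 0.248 in input Rosi. It was 0.662, 0.494 and 0.400 in polysome Veh and 0.392, 0.467 and 0.524 in polysome Rosi. Every polysome ratio was above every input ratio, with means on the log2 scale of -1.05 ± 0.28 (SD, n = 6) and -2.13 ± 0.16 (SD, n = 5). The coding regions of the 2 receptors are almost equally long, at 3267 and 3297 bases. They encode 1089 and 1099 residues.

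Within *Pdgfra*, the reads were assigned mainly to 2 transcripts that encode a protein of the same length and differ outside the coding region, *Pdgfra-201* of 6549 bases and *Pdgfra-202* of 6834 bases. The share of *Pdgfra-202* was 17.5% and 18.7% in input Veh and 13%, 13% and 17.3% in input Rosi. It was 5.85%, 10.8% and 1.7% in polysome Veh and 10.1%, 8.88% and 4.06% in polysome Rosi. Every polysome library had a lower share than every input library. The split between transcripts is an estimate of the quantifier, and its error was not analysed here. The antisense genes *Gm42802* and *Gm42803* overlap exons of other *Pdgfra* transcripts, not of these 2, and were not counted apart.

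**Figure D4:**
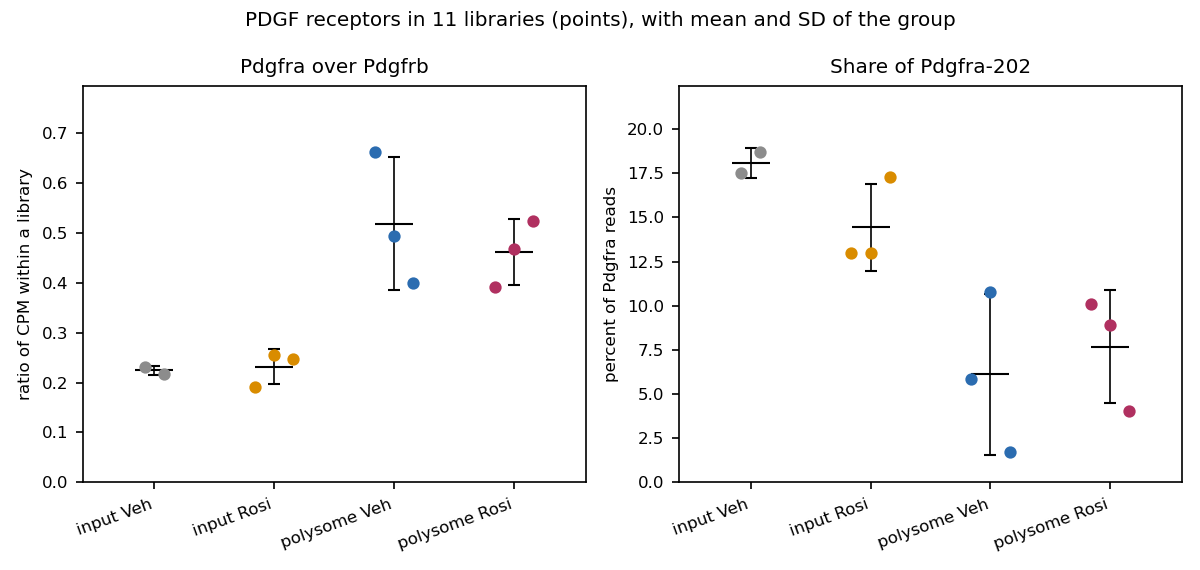
Left, ratio of *Pdgfra* to *Pdgfrb* CPM within each of the 11 libraries; right, percent of *Pdgfra* reads assigned to the transcript *Pdgfra-202*. Points are libraries and black marks are the mean and SD of each group; the polysome ratios (0.392 to 0.662) lie above the input ratios (0.192 to 0.256), and the polysome shares (1.7% to 10.8%) below the input shares (13% to 18.7%).

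Among the other members, *Pdgfrb-201* held at least 97.4% of the reads of its gene in each group mean, and 1 transcript of *Thy1* at least 99%. *Ly6a-204* held 53.9% ± 1.2 in input Veh, 50.4% ± 1.76 in input Rosi, 49.7% ± 2.12 in polysome Veh and 47.8% ± 1.63 in polysome Rosi (SD, n = 2, 3, 3 and 3). Within each treatment its polysome shares were all below its input shares, by as little as the step from 49.3% to 49.1% in Rosi, and across treatments the fractions overlapped. *Ly6a-204* is 1 of 5 *Ly6a* transcripts that encode a protein of 134 residues. The *Cd34* transcript that encodes 382 residues held 27% and 48.6% in input Veh and 48.9%, 59.8% and 77.4% in polysome Veh, and 48.8%, 42.9% and 67.1% in input Rosi and 74.4%, 63.2% and 84.3% in polysome Rosi. The fractions did not overlap in Veh and overlapped in Rosi, and these *Cd34* shares rest on few reads. The antisense genes *Gm16897* and *AC162182.1* overlap exons of *Cd34* and *Pi16*, and *Gm13561* those of 1 transcript of *Dpp4*. None of them was counted as a gene of its own and the sources used here do not say whether strand was used, so their reads cannot be told from those of the 3 members.

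Since the polysome pool was taken by the number of ribosomes, the members were also set beside genes of like coding length. Over all 13568 genes with a coding length, the median log2 fold change of polysome over input in Veh went from 0.44 below 300 bases to -0.40 at 4800 bases and above, and in Rosi from 0.56 to -0.48. *Ly6a*, with 402 coding bases, was above 78.7% of the 1707 genes within 1.5 times its length in Veh and above 80.3% in Rosi. *Thy1*, another short member with 486 coding bases, was above only 15.6% and 21.8% of such genes. *Cd248*, with 2295 coding bases, was above 7.13% of genes near its length in Veh and 11.3% in Rosi, and *Pi16*, with 1494, above 7.18% and 6.34%.

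*Pdgfra* and *Pdgfrb* lay on opposite sides of the median of their length class. *Pdgfrb* was above 15.1% of genes near its length in Veh and 14.8% in Rosi, and *Pdgfra* above 64.2% and 64.0% of almost the same genes. *Cd34* lay near the middle of its length class, above 51.4% and 55.4%. *Dlk1*, of nearly the same coding length, was above 4.35% and 2.3%, on the few reads given above.

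**Figure D5:**
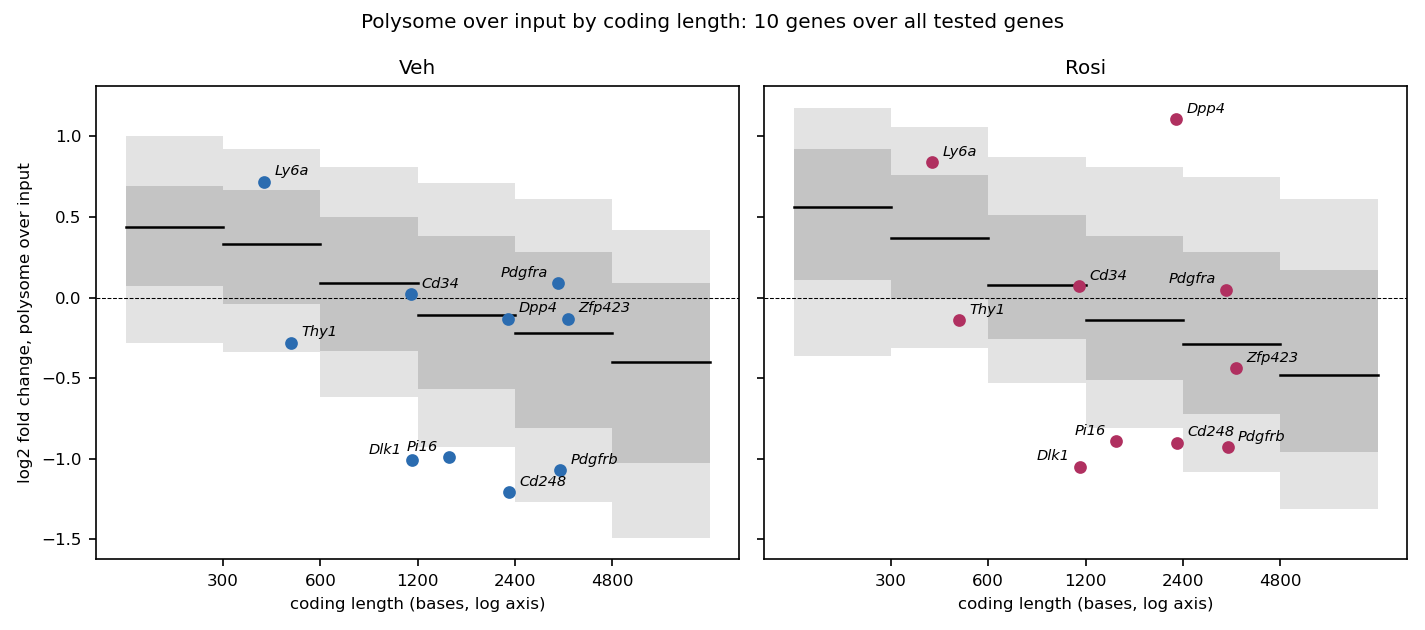
Log2 fold change of polysome over input (vertical axis) against coding length in bases (log axis) in Veh (left) and Rosi (right). Coloured points are the 10 genes; black lines are the medians of all tested genes in 6 length classes, dark bands their middle 50% and light bands their 10th to 90th percentiles. The medians go down with length, *Pdgfra* lies above the median of its class and *Pdgfrb*, *Cd248* and *Pi16* lie below theirs.

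Other lists were placed on the same comparison of polysome with input, beside the background shares of 9.67% in Veh and 11.3% in Rosi, both directions together. Of the 14042 tested genes, 938 were called lower and 420 higher in Veh, and 682 lower and 911 higher in Rosi. Of 20 general fibroblast genes, 7 were lower in polysome in Veh (median -0.53), among them *Gsn* (gelsolin, -1.48), *Col5a1* (-1.68) and *Col1a2* (-1.20), and in Rosi 7 were lower and 1 higher. Of 9 mural cell markers, whose list includes genes of the perivascular cells that also express *Pdgfrb*, 3 were lower and 1 higher in Veh (median -0.83), with *Notch3* at -1.62, the desmin gene *Des* at -1.58 and *Cspg4* (NG2) at -2.01. Of 18 ICAM1+ preadipocyte genes 6 were lower in Veh, including the basement membrane collagens *Col4a1* (-1.25), *Col4a2* (-1.86) and *Col15a1* (-1.54). In Rosi 4 of them were lower, and *Fabp4* was higher at 1.44. No gene of that list was called higher in Veh, where *Fabp4* had a mean of 66.9 CPM in input and 132 CPM in polysome.

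The relatives of the members were counted in the same way. Of 14 genes of PDGF ligands and receptor signalling none was called in either treatment. By the adjusted p alone, 4 were higher and 3 lower in Veh, with the kinase subunit genes *Pik3ca* (0.79) and *Pik3r1* (0.78) higher and *Plcg1* (-0.83) lower. Of 19 other DPP4+ progenitor genes, 3 were lower in Veh, among them *Dact2* (-1.15), and none was called in Rosi. With no fold minimum, 5 were lower in each treatment, and 3 were higher in Veh and 4 in Rosi. Of 5 Ly6 family genes *Lypd1* was higher in Veh (1.09), and of 11 relatives of *Dpp4* and *Pi16* the peptidase gene *Dpp3* was lower (-1.38). No gene of these 2 lists was called in Rosi. *Lypd1* (0.48) and *Dpp3* (-0.99) kept their directions there and passed by the adjusted p alone, without reaching the fold threshold. Of 25 regulators of commitment, the BMP receptor gene *Bmpr1a* was higher (1.35) and *Notch1* lower (-1.02) in Veh, and in Rosi 2 were higher, *Bmpr1a* (1.42) and *Bmpr2* (1.35), and 1 was lower. No gene of any list was called for the interaction.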

How the data were processed

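The authors demultiplexed reads of poly(A) libraries with bcl2fastq 2.17, checked them with FastQC and quantified transcripts with Salmon on mm10; the Salmon version and the use of strand are not given in the sources used here. The deposited tables hold estimated counts and TPM per transcript. The authors' own tests, with DESeq2, were not used. Estimated counts of 115973 of 117135 transcripts were matched to GENCODE M21, summed per gene and rounded; the 1162 unmatched transcripts held 0.381 to 0.464% of the reads. Effective lengths were not used further. PCR duplicates cannot be identified from these values, so depth covers counting error only.

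Rosi was compared with Veh in separate fits of the input and the polysome libraries, and polysome with input, and the interaction, in 1 fit of all 4 groups. These fits did not pair libraries by replicate number. Tests were 2-sided edgeR 4.0.16 quasi-likelihood F tests in R 4.3.3 (TMM factors, filterByExpr with a minimum count of 10), with Benjamini-Hochberg adjustment over all tested genes. A call required an adjusted p below 0.05 together with a log2 fold change beyond 0.2 in either direction for Rosi against Veh, or beyond 1 for the others. Replicates are biological per the labels, which name no mice, so p-values measure only the spread between these samples. SE is the fold change divided by the root of F, and 95% intervals use the t quantile of the fit's degrees of freedom. CPM uses TMM library sizes. The fits were tested on simulated counts. Alternatives were DESeq2 1.42.0, RLE factors, no count filter, limma 3.58.1 on log2(TPM + 1), where folds of low genes are understated, and the replicate block. Further alternatives were the identical library counted separately, 1 fit for both fractions, no fold minimum, and each library left out. Polysome over input was also fitted with only the 2 groups compared. The 10 members are named in every comparison. Other lists are given by counts and medians, with at most 3 genes named by smallest p at a mean log2 CPM of at least 1. The members and lists were chosen with earlier results of these data known.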

Additional observations from a re-analysis of the deposited data

How the results depend on the processing

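Of 682 values of single members under the alternatives, 590 kept their direction and their side of the threshold, 13 lost and 14 gained the call, and 65 changed sign, nearly all of them close to 0 or resting on few reads; except where given, the cause was not tested. Some of these values could not move. The alternative with no fold minimum reused the reported fit, so no sign could change (42 stayed the same and 6 gained the call). For Rosi against Veh in polysome, the fit of all 12 libraries held the same polysome libraries as the reported fit. Whether the replicate numbers pair the libraries could not be settled. Per the study's text, the input was total RNA from before the fractionation. Same-number libraries deviated from their group means with correlations of -0.337 to 0.169, but with 2 or 3 libraries per group these cannot exclude pairing. With the replicate block 0 members were called for polysome over input in Rosi, against 1 without it. That count was also 0 with DESeq2 and without the count filter, 5 with no fold minimum, and 0 to 3 with 1 library left out. In Veh, 2 members were called, 1 with limma, 4 with no fold minimum and 1 to 3 with 1 library left out. For Rosi against Veh in input, 1 member was called without the count filter, against 0. Signs changed as follows. For Rosi against Veh in input: *Cd34* with the replicate block (-0.13), *Ly6a* with all 12 libraries (0.04) and with limma (0.06), *Pi16* with limma (0.18), and with 1 library left out *Pdgfra* (-0.01 to 0.27), *Pdgfrb* (-0.01 to 0.18), *Dlk1* (-0.21 to 0.73), *Cd34* (-0.09 to 0.36) and *Ly6a* (-0.15 to 0.15). In polysome: *Pdgfra* with DESeq2 (0.01), RLE factors (0.01), the replicate block (0.004), limma (0.05) and 1 fit of all groups (0.01), *Thy1* with limma (0.005) and 1 fit (0.0009), and with 1 library left out *Pdgfra* (-0.08 to 0.10), *Cd34* (-0.02 to 0.20), *Ly6a* (-0.09 to 0.21), *Dpp4* (-0.20 to 0.74) and *Thy1* (-0.10 to 0.06). For polysome over input in Veh: *Cd34* with the replicate block (-0.02) and all 12 libraries (-0.01), *Dpp4* with all 12 libraries (0.19), and with 1 left out *Pdgfra* (-0.03 to 0.23), *Cd34* (-0.06 to 0.10), *Dpp4* (-0.84 to 1.14) and *Zfp423* (-0.83 to 0.29). In Rosi: *Pdgfra* with limma (-0.002) and with 1 left out (-0.05 to 0.12), and *Cd34* with 1 left out (-0.18 to 0.26). For the interaction: *Dlk1* with all 12 libraries (0.10), *Cd34* (-0.02) and *Pi16* (-0.47) with limma, and with 1 left out *Pdgfra* (-0.18 to 0.08), *Dlk1* (-0.60 to 0.34), *Cd34* (-0.19 to 0.25), *Ly6a* (-0.04 to 0.30), *Dpp4* (-0.03 to 1.95), *Pi16* (-0.21 to 0.22) and *Zfp423* (-0.74 to 0.39). The counts over all genes moved more. For Rosi in input they were 182 in the fit reported, 367 with DESeq2, 907 without the count filter, 1054 with all 12 libraries, 57 with limma, 77 in 1 fit, 66 without input Veh 2, 1580 without input Rosi 1 and 111 without input Rosi 2. In polysome they were 88, 189 without the filter, 37 with limma, 179 without polysome Veh 1 and 55 without polysome Veh 2. For polysome over input they were 1358 in Veh (844 with limma, 6929 with no fold minimum) and 1593 in Rosi (876 and 7731), and for the interaction 0 (57 without the filter, 9 without polysome Veh 1). Depth limits *Dlk1*, *Zfp423* and *Dpp4*, and 2 libraries limit input Veh.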
